A study of Mus musculus with 8 samples.

Results

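The respiratory chain and ATP synthase genes described here are the genes of the count table whose symbols start with Nduf followed by a, b, c, s or v and a digit, with Uqcr, with Cox and a digit from 4 to 8, or with Atp5, together with Sdha, Sdhb, Sdhc and Sdhd. The rule uses gene names and no measured value, although it was set with earlier results of these data known. They are 84 of the 24060 gene rows. By known function, 35 encode subunits of complex I, 4 of complex II, 8 of complex III, 18 of complex IV and 15 of complex V. The remaining 4 share the name pattern but are not subunits: Ndufa4l2, Cox7a2l, Atp5s and Atp5sl.

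Complexes I and II take electrons from NADH and from succinate, complex III hands them on through cytochrome c, and complex IV passes them to oxygen. Complexes I, III and IV pump protons across the inner mitochondrial membrane, and complex V, the ATP synthase, uses their return to make ATP. Sensory neurons of the dorsal root ganglion carry mitochondria far along their axons and draw on this ATP for ion pumping and axonal transport. A few subunits of these complexes are encoded by mitochondrial DNA. The 13 of them on the list of further chain genes were not analysed here.

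RNA came from dissociated lumbar dorsal root ganglia (L4 to L6) of mice, 3 days after one sciatic nerve was crushed. According to the study design, 4 mice each gave injured and naive ganglia, which makes 4 injury and 4 naive libraries. The naive group is thus uninjured ganglia of operated mice, and the labels give no strain, sex, age or genotype. The libraries are QuantSeq REV, in which each read starts at the poly(A) tail, so a transcript gives about one read whatever its length and CPM, counts scaled to library size, is not divided by length.

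Gene counts summed to between 16539644 and 28950551 per library, and the 84 genes held 1.97% to 2.18% of them. Summed CPM of 12 sensory neuron markers lay between 13264.8 and 14266.5 in naive and between 12999.5 and 16249.7 in injury libraries, so the labelled tissue was well marked. Among these markers, Ret rose and Pou4f1 and Scn10a fell, and with same-numbered libraries paired Uchl1 also rose and Scn9a and Calca also fell. Of 9 macrophage markers tested, 7 rose, and their sum went from 10.8 to 22.5 CPM in naive to 39.4 to 59.9 CPM in injury libraries. Of 6 neutrophil markers, 1 fell (Ltf), or all 6 with same-numbered libraries paired (adjusted p from 6.56e-05 to 0.00129 in edgeR), and their sum was 377.6 to 1304.1 CPM in naive and 134.3 to 475.7 CPM in injury libraries. The part of these shifts in the values below was not tested. In such bulk samples, fewer cells of a type and less RNA per cell cannot be told apart. Naive 2, injury 2 and injury 3 ran low in genes with AT-rich 3′ ends, and results are therefore given with and without them.

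With TMM scaling, RNA of most tested nuclear-encoded respiratory chain and ATP synthase genes stayed close to its naive level 3 days after the crush. Of the 79 genes that passed the low-count filter, 1 rose (Sdhb) and 3 fell (Ndufb3, Ndufc2 and Atp5a1) at an adjusted p under 0.05 in edgeR's quasi-likelihood test, adjusted over all 13770 genes. Among all genes tested, 10.1% rose and 7.75% fell, 17.8% in either direction. The median log2 fold change, injury against naive, was -0.01 over the 79 genes and -0.02 over all genes. Positive estimates numbered 37 and negative ones 42, and 11 genes had an unadjusted p under 0.05 in edgeR. Of all 13770 genes tested, 6594 estimates were positive and 7176 negative, and 4251 genes had an unadjusted p under 0.05. With library sizes alone in place of TMM scaling, 1 of the 79 rose and 7 fell (7.99% and 11.5% of all genes). Over all genes, the split was 1387 higher and 1067 lower with TMM scaling and 1100 higher and 1581 lower with library sizes alone.

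The counts were close under other settings. With same-numbered libraries paired, 1 of the genes rose and 3 fell (10.1% and 9.01% of all genes). Without naive 2, injury 2 and injury 3, 1 rose and 4 fell (9.36% and 7.02%). With a correction for GC content at the 3′ end, 3 rose (Sdhb, Cox5a and Atp5k) and 3 fell (Ndufs3, Ndufc2 and Atp5a1), against 11.4% and 8.34%. DESeq2 gave 2 rises (Sdhb and Atp5k) and the same number of falls, 3, against 10.6% and 7.86%.

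The estimates were narrow. The median level of the 79 genes stood at percentile 91.9 of all genes tested, and 65 of them lay above percentile 75. Of the 70 tested genes at 10 CPM or more, 69 had an estimate within 0.5 on the log2 scale (1.41-fold), and the exception was Sdhd. Without Sdhd, their standard errors ran from 0.07 to 0.15. P-values here measure the spread between 4 libraries a group. Every injury library lay above every naive library for 3 of the 79 genes (Ndufs4, Sdhb and Cox6c), against 12.6% of all genes tested. Every injury library lay below every naive library for 7 (Ndufs1, Ndufs3, Ndufb3, Ndufc2, Sdha, Uqcrc2 and Atp5a1), against 10.8%.

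**Figure D1:**
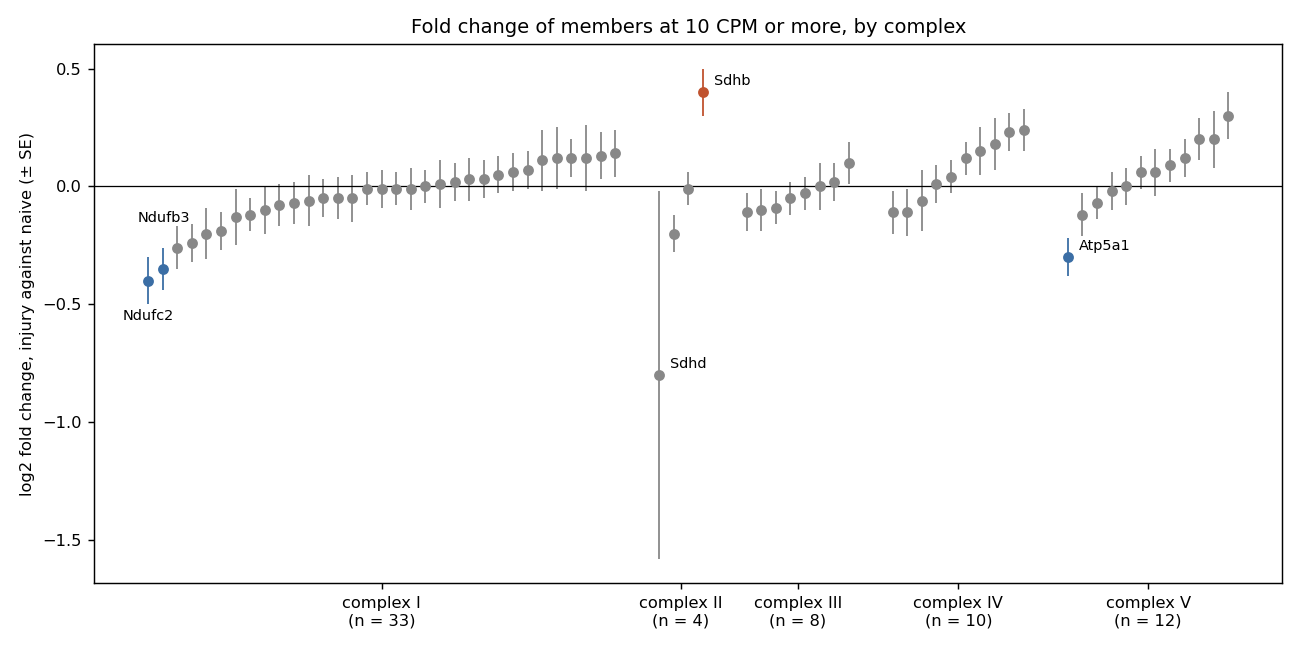
Log2 fold change, injury against naive, of the subunit genes at 10 CPM or more, ordered by size within each complex. Points are edgeR estimates and lines are ± 1 SE (n = 4 a group). Red marks the called rise and blue the called falls. Most points lie within 0.3 of zero, and Sdhd has by far the widest line.

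The 4 called genes lie on 4 chromosomes, and of these Ndufb3, Ndufc2 and Sdhb had a RefSeq promoter (GRCm38.p6) to set beside the values. The 150 bases before their annotated start are printed 5′ to 3′ along the gene, with those of Sdhd, the gene with the largest standard error among those at 10 CPM or more. Capitals mark matches to the motifs counted below.
Ndufb3 (chr1:58586247-58586396, plus strand): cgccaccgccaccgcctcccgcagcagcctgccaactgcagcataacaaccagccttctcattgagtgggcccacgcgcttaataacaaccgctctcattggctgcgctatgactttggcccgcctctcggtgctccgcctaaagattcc
Ndufc2 (chr7:97399853-97400002, plus strand): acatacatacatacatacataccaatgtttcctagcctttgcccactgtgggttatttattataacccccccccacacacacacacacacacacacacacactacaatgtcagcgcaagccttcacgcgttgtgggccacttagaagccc
Sdhb (chr4:140961121-140961270, plus strand): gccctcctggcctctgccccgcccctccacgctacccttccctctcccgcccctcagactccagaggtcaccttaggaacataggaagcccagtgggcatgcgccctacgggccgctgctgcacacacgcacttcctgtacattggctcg
Sdhd (chr9:50603850-50603999, minus strand): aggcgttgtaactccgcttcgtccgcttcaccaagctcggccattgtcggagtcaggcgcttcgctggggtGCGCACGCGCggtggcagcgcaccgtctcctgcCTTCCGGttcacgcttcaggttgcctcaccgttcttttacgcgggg

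Of the 84 genes, 69 matched a RefSeq promoter of 250 bases before and 50 after the start. They were searched on both strands for letters bound by factors known to serve nuclear genes of mitochondria, and for the TATA motif. The 69 include Ndufs5, Cox8a and Cox8b, which were not tested, while the genes set beside them were all tested. The NRF1 motif (GCGC, any base, TGCGC) was held by 17 of the 69 (24.6%, against 10.8% of 10945 tested genes with a promoter). The YY1 motif AAGATGGC was held by 11 (15.9%, against 4.95%). The ETS motif CCGGAAG, read by GABP, was held by 16 (23.2%, against 18.5%), and the TATA motif TATAAA by 7 (10.1%, against 9.16%). No 2 motifs overlapped within these 69 promoters. The printed stretch of Sdhd holds an NRF1 and an ETS match, those of Ndufb3, Ndufc2 and Sdhb hold none, and Sdhb has 1 match elsewhere in its 300 bases. A match describes the letters in this window only.

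Complex I, the NADH dehydrogenase, had 35 genes and 34 tested, of which none rose and 2 accessory subunits fell. Their median log2 fold change was -0.01, and the summed level went from 6487 ± 154 to 6231 ± 319 CPM (SD, n = 4 a group), 0.961 times the naive sum. Without naive 2, injury 2 and injury 3 it was 0.939 times the naive sum. Injury 3, at 6697 CPM, was the only injury library within the naive range. Both falls were in subunits of the membrane arm that hold no redox centre, Ndufb3 and Ndufc2. The 7 core subunits, which carry the flavin and the iron-sulphur clusters, had a median of -0.08, with 0 called in edgeR, DESeq2 or limma-voom and 2 at an unadjusted p under 0.05.

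Ndufb3 (chromosome 1, 58586397 to 58595964, RefSeq on GRCm38) is the most abundant complex I gene here. It was at 748.5, 748.2, 701.8 and 688.7 CPM in naive libraries 1 to 4 and at 611.1, 494.6, 529.5 and 629.0 CPM in injury libraries 1 to 4. All injury libraries lay below all naive ones, and injury 2 and injury 3 were the lowest. Its log2 fold change was -0.35 ± 0.09 (SE), with an adjusted p of 0.0153 in edgeR. Without naive 2, injury 2 and injury 3 it was -0.21, adjusted p = 0.0345 in edgeR. Its last 100 bases hold 23% GC, and after a GC correction the log2 fold change was -0.20 with an adjusted p of 0.0629, so the call ended there.

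Ndufc2 (chromosome 7, 97400003 to 97407800) was at 242.1, 258.1, 256.2 and 270.1 CPM in naive and at 219.7, 160.7, 186.2 and 210.5 CPM in injury libraries. The groups did not overlap, and injury 2 and injury 3 were again the lowest. The log2 fold change was -0.40 ± 0.10 (SE), adjusted p = 0.0133 in edgeR. It stayed past the threshold without naive 2, injury 2 and injury 3 (-0.26, adjusted p = 0.0257) and after the GC correction (-0.35, adjusted p = 0.01).

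Other complex I genes held near their naive level. Ndufb8, the second most abundant, was at 461.3 ± 15.7 CPM in naive and 457.3 ± 33.2 CPM in injury libraries. Closest to the threshold were Ndufb5, a membrane-arm subunit, at -0.24 ± 0.08 (adjusted p = 0.0662 in edgeR), and Ndufs3, a core subunit of the peripheral arm, at -0.26 ± 0.09 (adjusted p = 0.0785). With the GC correction Ndufs3 passed (-0.28, adjusted p = 0.032), and Ndufb5 passed without injury 2 (-0.30, adjusted p = 0.0467). Ndufs1, which carries iron-sulphur clusters, lay 98.7 to 112.4 CPM in naive and 88.9 to 95.1 CPM in injury libraries, with an adjusted p of 0.107, and was picked out after its values were seen. Ndufv3, an accessory subunit beside the flavin site, was at -0.20 (adjusted p = 0.252), and at -0.28 (adjusted p = 0.0491) without naive 2, injury 2 and injury 3.

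The highest estimate in complex I was that of Ndufa2, at 0.14 ± 0.10 with an adjusted p of 0.366 in edgeR, and it was -0.02 without the 3 libraries. Across same-numbered pairs, 7 of the 33 complex I genes at 10 CPM or more were lower in injury in all 4 pairs and 1, Ndufs4, was higher in all 4. The same counts were 2 lower and 1 higher of 4 in complex II, and 3 and 0 of 8 in complex III. They were 0 and 3 of 10 in complex IV, and 2 and 3 of 12 in complex V. The share over all genes was not counted, so no fall of complex I as a whole is read from this. Ndufs4, an accessory subunit needed for a stable peripheral arm, was picked out after its values were seen. It was at 103.0 ± 2.69 CPM in naive and 112.3 ± 8.11 CPM in injury libraries, a log2 fold change of 0.12 (adjusted p = 0.317 in edgeR).

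**Figure D2:**
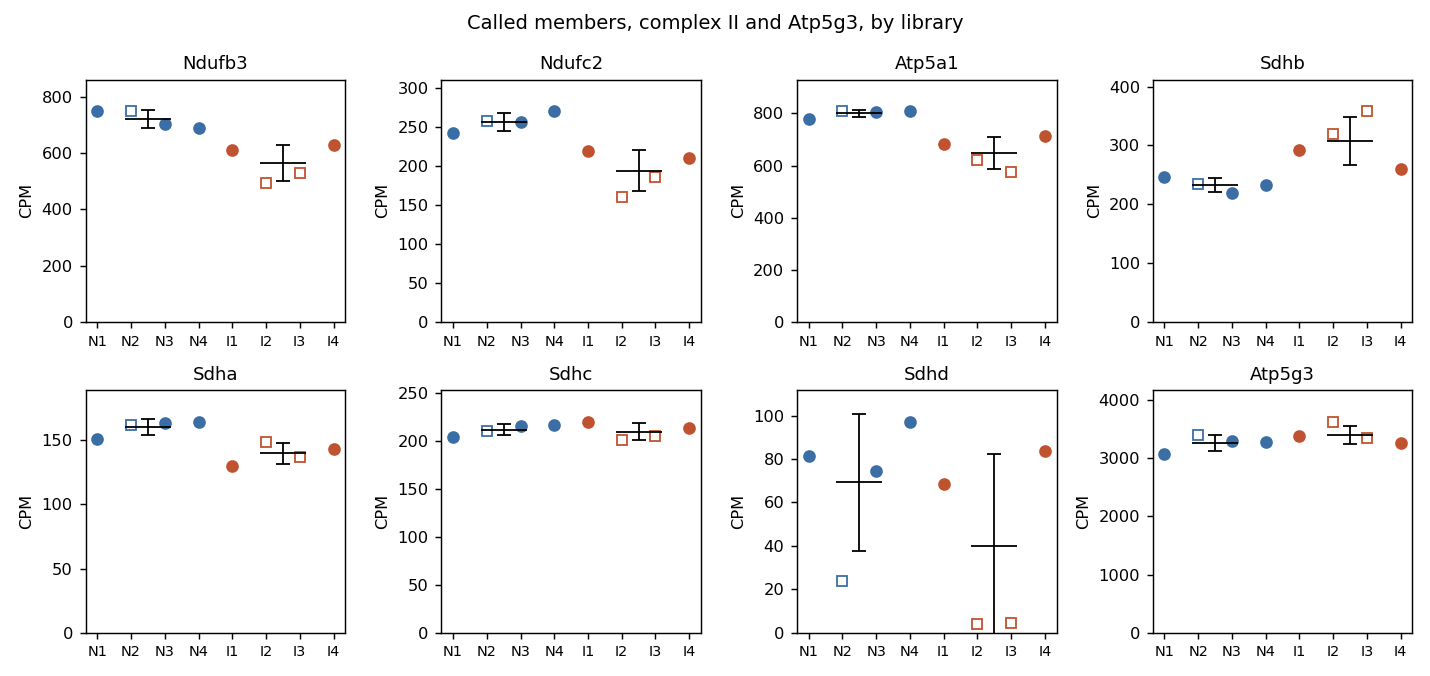
CPM per library (TMM-scaled) of the called genes, the complex II genes and Atp5g3. Points are single libraries (N naive, I injury), with open squares for naive 2, injury 2 and injury 3, and bars are mean ± SD (n = 4), ended at 0 for Sdhd. Sdhd is near 0 in injury 2 and injury 3 and low in naive 2, while Sdhb is higher in every injury library.

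Complex II, succinate dehydrogenase, is the enzyme shared with the citric acid cycle and has 4 subunits, all encoded in the nucleus. All 4 were tested: Sdhb rose, and Sdha, Sdhc and Sdhd did not pass the test. Sdhb carries the iron-sulphur clusters (chromosome 4, 140961271 to 140979198). It was at 247.0, 234.2, 218.9 and 232.6 CPM in naive and at 292.0, 319.3, 357.9 and 260.7 CPM in injury libraries. Every injury library lay above every naive one, with injury 3 the highest and injury 4 the nearest to the naive range. This was a log2 fold change of 0.40 ± 0.10 (SE, 1.32-fold), adjusted p = 0.0127 in edgeR. It was 0.24 without naive 2, injury 2 and injury 3 (adjusted p = 0.0417), and without naive 3 alone the adjusted p was 0.0515.

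Sdha, the flavoprotein that oxidises succinate, was at 151.1, 162.0, 163.4 and 164.1 CPM in naive and at 129.9, 148.9, 136.9 and 143.5 CPM in injury libraries. The groups did not overlap, yet at -0.20 ± 0.08 on the log2 scale the adjusted p was 0.0946 in edgeR. With library sizes alone, that adjusted p was 0.0277. Sdhc, a membrane anchor, spanned 204.4 to 217.3 CPM in naive and 200.8 to 219.9 CPM in injury libraries, a log2 fold change of -0.01 ± 0.07.

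Sdhd, the other membrane anchor (chromosome 9, 50596340 to 50603849), was at 81.5, 24.0, 74.4 and 97.0 CPM in naive and at 68.7, 3.86, 4.39 and 83.7 CPM in injury libraries. Behind these stand 1710, 503, 1362 and 2223 reads in naive and 1554, 109, 91 and 1366 reads in injury libraries. The low values are those of naive 2, injury 2 and injury 3, and the groups overlap. The fitted log2 fold change was -0.80 ± 0.78 (adjusted p = 0.531 in edgeR), -1.61 with same-numbered libraries paired (adjusted p = 0.0689) and -0.15 without the 3 libraries (adjusted p = 0.443). Injury was the lower in all 4 pairs.

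The drop of Sdhd in injury 2 and injury 3 was set beside that of all other genes. The log2 ratio of the mean of these libraries to that of injury 1 and injury 4, after adding 0.5 CPM, was -4.05 for Sdhd, the 4th lowest of 13770 genes. Only 57 genes (0.414%) lay under -2, and Sdhd was the only respiratory chain gene among them. The next lowest of the 79 was Cox7b2 at -0.52. The last 100 bases of Sdhd hold 30% GC, and the cause of its low counts was not tested.

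Complex III, the cytochrome bc1 complex, had the narrowest spread of estimates, from -0.11 to 0.10 over its 8 genes. All 8 were tested, 0 were called by edgeR, DESeq2 or limma-voom, and 0 had an unadjusted p under 0.05. The summed level was 2334 ± 48.2 CPM in naive and 2345 ± 132 CPM in injury libraries. Uqcrh, the hinge protein that helps cytochrome c dock, was the most abundant at 905.2 ± 24.7 and 970.2 ± 127.3 CPM. Uqcrq, a small subunit beside cytochrome b, followed at 295.9 ± 11.9 and 290.5 ± 19.4 CPM. The lowest estimate was that of Uqcr11, another small subunit, at -0.11 ± 0.08 (adjusted p = 0.344 in edgeR). Uqcrc2, a core protein, spanned 165.2 to 171.3 CPM in naive and 145.8 to 163.7 CPM in injury libraries, without overlap, at -0.09 ± 0.07 (adjusted p = 0.423), and was picked out after its values were seen.

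Complex IV, cytochrome c oxidase, had 18 genes, 11 of them general forms and 7 forms known from heart and muscle, lung or testis. Of 14 tested, 0 were called by edgeR, DESeq2 or limma-voom and 2 had an unadjusted p under 0.05. The 10 tested general forms had a median log2 fold change of 0.08 and ran from -0.11 to 0.24. The summed level went from 4151 ± 153 to 4464 ± 291 CPM, 1.08 times the naive sum and 1.03 times without naive 2, injury 2 and injury 3.

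Cox5a, the subunit that binds thyroid hormone metabolites, was the most abundant general form. It was at 585.2, 553.1, 624.4 and 681.3 CPM in naive and at 658.9, 781.2, 668.2 and 787.3 CPM in injury libraries, with overlapping groups. At 0.24 ± 0.09 on the log2 scale it missed the threshold (adjusted p = 0.0854 in edgeR). This p was 0.0346 with the GC correction and 0.0493 without injury 3. A gene on the other strand, Gm26631, overlaps the 3′ end of Cox5a, as Tmco6 does for Ndufa2, Pdzd9 for Uqcrc2, Itgad for Cox6a2 and Shmt2 for Ndufa4l2. So do Tfpt for Ndufa3, Braf for Ndufb2 and Smim27 for Ndufb6, members named for this overlap only. Whether reads were counted by strand is not stated, so these counts are less certain. Cox6c, a small membrane subunit, was at 556.7, 574.7, 573.2 and 589.7 CPM in naive and at 623.0, 627.5, 783.3 and 647.8 CPM in injury libraries. These groups did not overlap, injury 3 stood apart, and the log2 fold change was 0.23 ± 0.08 (adjusted p = 0.0862).

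The general form held nearly all counts of Cox4, Cox6a, Cox6b and Cox7a, while Cox8a and Cox8b had too few reads for a share. Cox4i1 held at least 99.9% of the Cox4 counts, Cox6b1 at least 99.7% of Cox6b and Cox6a1 at least 99.5% of Cox6a in every library. Cox7a1, the heart and muscle form, held 0.751% ± 0.112 of the Cox7a counts in naive and 0.492% ± 0.0799 in injury libraries. Its log2 fold change was -0.45 ± 0.26 (adjusted p = 0.259 in edgeR), at 4.00 ± 0.639 and 2.92 ± 0.707 CPM. Summed CPM of 11 skeletal muscle markers was 2.40 to 6.39 in naive and 3.67 to 6.03 in injury libraries, and its part in the Cox7a1 values was not tested.

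The other tissue forms were near the limit of counting. Cox7b2, the testis form of Cox7b, had 87 reads over the 8 libraries and a log2 fold change of -1.28 ± 0.67 (adjusted p = 0.217 in edgeR). Cox6a2, the heart and muscle form, had 106 reads, and Cox6b2, the testis form, had 125. Cox4i2, the lung form, had 24 reads, Cox8b, a heart and muscle form, had 8, and Cox8c, a testis form, had 0. Ndufa4, first described in complex I and now placed in complex IV, was at 237.2 ± 12.4 and 219.7 ± 32.1 CPM, while its paralog Ndufa4l2 took 0.0355% to 0.521% of their joint counts.

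Complex V, the ATP synthase, had 15 genes, all tested, of which 1 fell and, in edgeR, 0 rose (1 in DESeq2, 0 in limma-voom). The summed level was 6712 ± 237 CPM in naive and 6905 ± 257 CPM in injury libraries, 1.03 times the naive sum. The fall was in the catalytic F1 head, where Atp5a1 encodes the alpha subunit (chromosome 18, 77773768 to 77782869). Atp5a1 was at 778.2, 808.2, 805.8 and 807.7 CPM in naive and at 684.5, 622.4, 577.3 and 713.8 CPM in injury libraries. All injury libraries lay below all naive ones. Its log2 fold change was -0.30 ± 0.08 (SE), adjusted p = 0.0197 in edgeR, and -0.19 (adjusted p = 0.0372) without naive 2, injury 2 and injury 3. The call was lost without naive 3 (adjusted p = 0.0579), naive 4 (0.0531) or injury 2 (0.0506).

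Atp5b, the beta subunit that pairs with alpha in the head, was picked out after its values were seen. It was at 676.2 ± 35.0 CPM in naive and 736.9 ± 70.9 CPM in injury libraries, a log2 fold change of 0.12 ± 0.08 (adjusted p = 0.336 in edgeR). The difference between the alpha and beta subunits was not tested.

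The Fo sector and stalks, with 10 genes, had a median log2 fold change of 0.06. Atp5k, the e subunit that helps synthase dimers form, was the uncalled member nearest the threshold. It was at 409.1, 370.0, 359.7 and 363.0 CPM in naive and at 399.9, 470.1, 560.8 and 423.2 CPM in injury libraries, so that naive 1 lay above injury 1. Its log2 fold change was 0.30 ± 0.10, adjusted p = 0.061 in edgeR. It passed with DESeq2 (adjusted p = 0.0373), with the GC correction (0.0476), and without injury 1 (0.0277) or injury 4 (0.0468), and was 0.12 (adjusted p = 0.308) without naive 2, injury 2 and injury 3.

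The c subunit, which forms the rotating ring, is made from 3 genes with the same mature protein. Atp5g3 was the most abundant gene of all 84, at 3254 ± 133 CPM in naive and 3396 ± 154 CPM in injury libraries (log2 fold change 0.06 ± 0.07, adjusted p = 0.59 in edgeR). It held 93.8% ± 0.482 of c-subunit counts in naive and 94.5% ± 0.127 in injury libraries. Atp5g1 held 6.04% ± 0.454 and 5.38% ± 0.104, and Atp5g2 held 0.201% ± 0.0465 and 0.148% ± 0.0317. The log2 fold changes were -0.12 ± 0.09 for Atp5g1 (adjusted p = 0.413) and -0.40 ± 0.23 for Atp5g2 (adjusted p = 0.276). The last 100 bases of Atp5g1 and Atp5g2 have a copy at 95% identity or more in a transcript of another annotated gene. So do those of Cox6a1, Cox7c and Atp5j2, and the counts of these genes and the Cox6a share are less certain. Copies outside annotated transcripts were not sought.

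**Figure D3:**
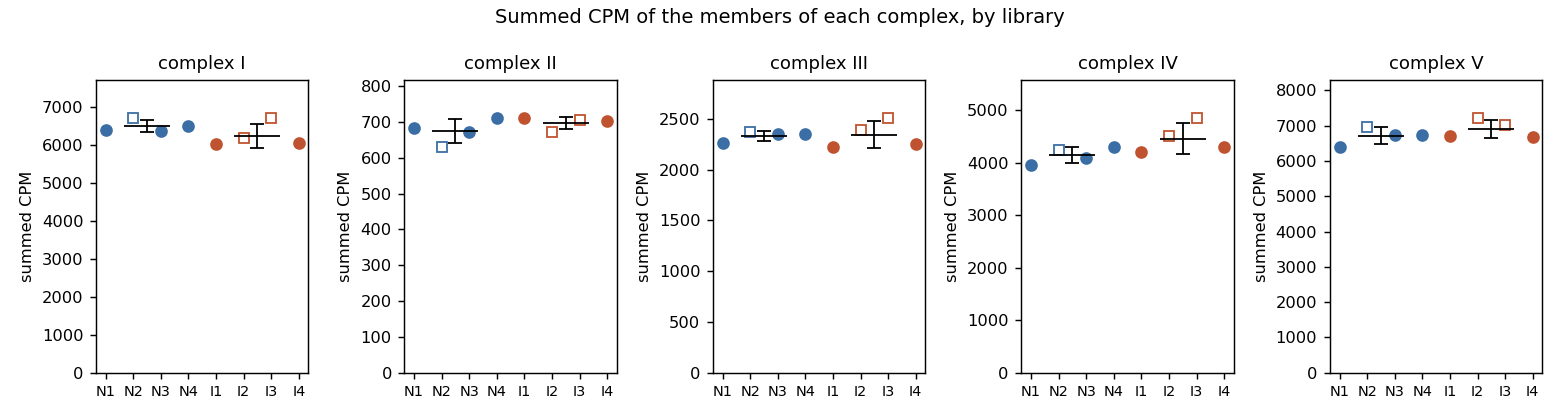
Summed CPM (TMM-scaled) of the genes of each complex by library; N is naive and I is injury, squares are naive 2, injury 2 and injury 3, bars are mean ± SD (n = 4), and each axis starts at 0. With all 8 libraries, group means differ most in complex IV, where injury is 1.08 times naive, and the groups overlap in every complex. Without naive 2, injury 2 and injury 3 they differ most in complex I. The ratios are then 0.939 in complex I, 1.02 in II, 0.964 in III, 1.03 in IV and 1.01 in V.

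The 4 name-sharing genes gave 0 calls in edgeR, DESeq2 or limma-voom, and 0 of them had an unadjusted p under 0.05. Cox7a2l, which helps complexes III and IV join into supercomplexes, was at 377.8 ± 15.5 and 392.3 ± 11.1 CPM. Ndufa4l2, known as a hypoxia-induced gene, had 109 reads over the 8 libraries.

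A few subunits found in every tissue had very few reads. Of the 14 genes under 10 CPM, 6 are general subunits: Ndufs5, Ndufb11, Cox8a, Atp5j, Atp5l and Atp5g2. Ndufs5 had 0 reads, Cox8a 72, Ndufb11 159, Atp5j 632 and Atp5l 753 over the 8 libraries, against 57191 for Ndufa5, another accessory subunit. Ndufs5, Atp5j, Atp5l and Ndufa5 were picked out after their values were seen. A count made only at the 3′ end and assigned by gene name cannot be read as a low level of these subunits, and the cause was not tested. Ndufs5, Cox8a, Cox4i2, Cox8b and Cox8c were the 5 genes left out by the low-count filter. Ndufb11 was tested, with a log2 fold change of -0.63 ± 0.48 (adjusted p = 0.399 in edgeR).

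Leaving out naive 2, injury 2 and injury 3 kept the 4 calls and added Ndufv3 to the falls named above. Over the 70 genes at 10 CPM or more, 51 kept the sign of their estimate and 19 changed it. The largest estimate that changed sign was 0.14 on the log2 scale, that of Ndufa2. In 25 genes the estimate moved by more than 0.1, and the median over all members tested went from -0.01 to -0.07. Both sets of estimates share 5 libraries.

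**Figure D4:**
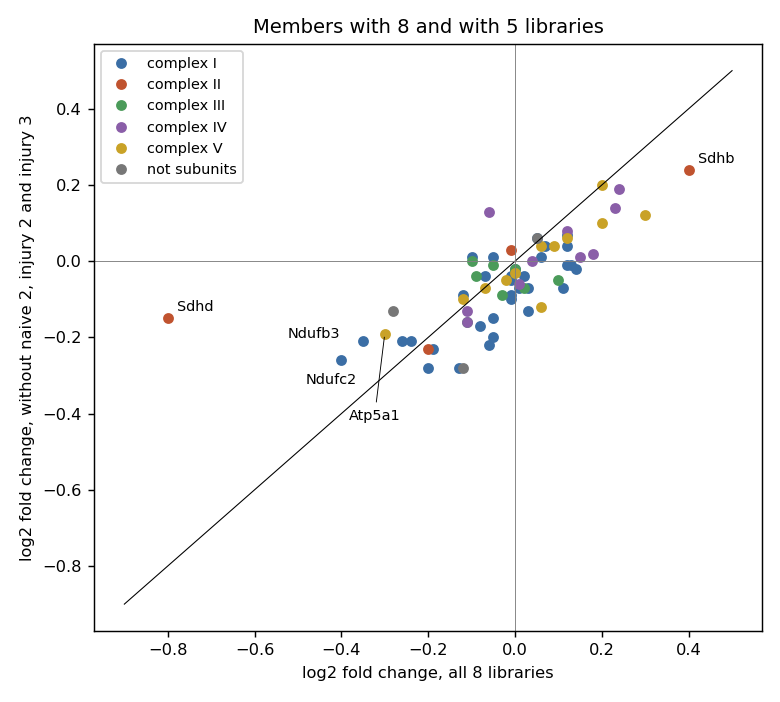
Log2 fold change, injury against naive, of the 70 genes at 10 CPM or more, with all 8 libraries (horizontal axis) and without naive 2, injury 2 and injury 3 (vertical axis). The line marks equal values. Sdhd lies farthest from it, at -0.80 against -0.15, and the 4 called genes keep their direction with smaller estimates.

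Base composition at the 3′ end moved with these 3 libraries. Median GC of the last 100 bases was 41.0% over the 79 genes and 36.0% over 13658 tested genes, and 13.9% of the former against 26.2% of the latter lay under 30%. Across the 70 genes, a gene's deviation from its mean within the naive or the injury group was set beside its GC. The correlation was 0.27, 0.29 and 0.30 (Pearson) in naive 2, injury 2 and injury 3. In the other 5 libraries it was between -0.35 and -0.15. Deviations within a group cancel out, so opposite signs between its libraries are partly built in. The log2 fold change had a correlation with GC of 0.29 (Spearman 0.27) with all libraries and -0.03 (Spearman -0.04) without the 3. These are descriptions across genes that share libraries and depth. By class, the median log2 fold change with all libraries was -0.12 for the 9 genes under 30% GC, -0.01 for the 33 from 30% to under 45%, and 0.01 for the 28 at 45% or more. Without naive 2, injury 2 and injury 3 these medians were -0.1, -0.04 and -0.06.

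Other genes of mitochondrial energy supply were counted from lists. Of 91 tested, 6 rose and 1 fell, where 10.1% of all genes rose and 7.75% fell, among them 4 rises and 1 fall in 39 assembly factors and 2 rises in 12 carriers and porins. With same-numbered libraries paired, 6 rose and 3 fell (10.1% and 9.01% of all genes). Of 16 regulators of mitochondrial biogenesis and 6 tested entries of the list of further chain genes, 0 were called by edgeR, DESeq2 or limma-voom (2 and 0 at an unadjusted p under 0.05 in edgeR). Not all of these 6 entries encode chain subunits. Of 18 citric acid cycle genes, 0 were called by edgeR, with 3 at an unadjusted p under 0.05, and 1 was called by DESeq2 and by limma-voom. Ttc19, which serves complex III assembly, showed the largest rise, from 40.1 ± 2.74 to 63.2 ± 10.6 CPM (log2 fold change 0.66 ± 0.12, adjusted p = 0.00267 in edgeR), and kept its call without any single library. Ndufaf4, a complex I assembly factor, went from 39.6 ± 3.67 to 52.1 ± 2.71 CPM (0.39, adjusted p = 0.0163). Mpc1, part of the pyruvate carrier, went from 79.1 ± 9.20 to 103.9 ± 8.73 CPM (0.39, adjusted p = 0.0183).

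The phosphate carrier Slc25a3, which feeds the ATP synthase, went from 525.7 ± 41.0 to 648.9 ± 50.6 CPM (0.30, adjusted p = 0.0245 in edgeR). Cox10, which makes a haem precursor for complex IV, rose by 0.36 on the log2 scale (adjusted p = 0.0362), and Atpaf2, an F1 assembly factor, by 0.42 (adjusted p = 0.0494, or 0.0761 with pairs). The fall was that of Cox17, a copper chaperone for complex IV, from 240.5 ± 10.6 to 173.6 ± 40.4 CPM (-0.47, adjusted p = 0.0328). Except for Ttc19, each of these calls was lost without at least 1 library, with adjusted p-values up to 0.0539 for Ndufaf4 (without naive 1 or injury 2), 0.0554 for Mpc1 (naive 1, 2 or 3), 0.0782 for Slc25a3 (naive 1, 2 or 3, injury 2 or 4), 0.0967 for Cox10 (any naive library, injury 2 or 3), 0.135 for Atpaf2 (any but injury 2) and 0.0819 for Cox17 (any naive library, injury 2 or 3). Without naive 2, injury 2 and injury 3 the adjusted p was 0.0585 for Slc25a3, 0.277 for Cox10 and 0.0749 for Cox17.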

How the data were processed

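The gene table deposited by the authors holds raw read counts, as whole numbers. The tools named, per the submitters' processing notes, are HTSeq, STAR and bcl2fastq 2.17, and the build is GRCm38 (mm10). The versions of STAR and HTSeq, and how multiply mapped reads were treated, are not given in the labels. A deposited table of genomic windows was not used. A date stands where the gene name should be in 27 rows, which took 0.133% to 0.164% of counts per library and were kept in the fit.

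Genes were tested with edgeR 4.0.16 in R 4.3.3 (quasi-likelihood test, TMM scaling, filterByExpr, group as the only term), with Benjamini-Hochberg adjustment over all 13770 genes and a threshold of 0.05. All adjusted p-values are edgeR's unless another tool is named, and CPM values are TMM-scaled. Alternatives were other scaling, DESeq2 1.42.0, limma 3.58.1 (voom), no filter, a replicate block, a correction for GC of the last 100 bases of each gene (GENCODE vM21, loess per library), and leaving out libraries. The GC correction also takes out a group difference that follows GC. The steps were also run on simulated counts, drawn independently for each library and without pairs. This does not show how well the tests hold for these data. Copies in other genes were sought with BLAST 2.17.0+ among GENCODE vM21 transcripts only, as alignments of at least 75 bases at 95% identity.

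Members, lists and rules were chosen with earlier results of these data known. Genes named are those called, the 2 most abundant of each complex, paralog sets, the Sdh genes, the 4 nearest the threshold, those whose call changed without naive 2, injury 2 and injury 3 or with the block, the 4 tested genes with the lowest level, and the largest rise and fall of each complex. Pathway genes are named where called. Other names are said to be picked afterwards. The values of some genes on the lists are not reported here.

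By the series design, each animal gave both kinds of ganglia, so the replicate number was read as the animal. After subtracting group means, libraries of one number correlated at 0.13, 0.22, 0.05 and 0.17, and this reading remains an assumption.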

Additional observations from a re-analysis of the deposited data

Results flagged for a closer look

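In 9 of 88 groups of 4 libraries, the highest or lowest library lay apart from the other 3 by more than Dixon's 95% limit allows. Chance flags about 1 in 20 such groups. Among the called genes, Atp5a1 in naive 1 was at 778.2 CPM, with the other naive libraries between 805.8 and 808.2. In injury 3, Cox6c was at 783.3 CPM (others 623.0 to 647.8). In injury 2, Atp5g1 was at 209.2 CPM (others 187.2 to 188.6). Sdha was lowest in naive 1 at 151.1 CPM (others 162.0 to 164.1). Ndufs3 was highest in naive 2 at 117.1 CPM (others 95.9 to 98.0), and Uqcrh in naive 3 at 941.9 CPM (others 888.6 to 896.4). At the limit of counting stood Cox6b2 in naive 3 at 1.58 CPM (others 0.334 to 0.524), Cox8a in naive 2 at 0.907 CPM (others 0.328 to 0.393) and Cox8b in naive 4 at 0.262 CPM (others at 0).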

How the results depend on the processing

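For the 38 named members, 578 values were computed under 17 alternatives (34 tested members). No estimate that was called changed sign, 6 values left the called side and 14 entered it. Members higher in injury, 1 in the main test, numbered 2 with DESeq2, 3 with the GC correction, 2 with the replicate block and GC correction, and 0 to 2 when a library was left out (0 without naive 3). Members lower, 3 in the main test, numbered 7 with library sizes alone and 2 to 3 when a library was left out. With the replicate block alone the calls among the members were the same in number, 1 higher and 3 lower. Over all genes, those lower numbered 689 to 1082 and those higher 1049 to 1356 when a library was left out, 689 being without naive 3. Pathway genes higher, 6 in the main test, numbered 1 with library sizes alone and 1 to 6 when a library was left out (1 without naive 1, 2 without naive 3, 3 without injury 2). Pathway genes lower, 1 in the main test, numbered 6 with library sizes alone, 2 with DESeq2, 2 with limma-voom, 3 with the replicate block, 3 without naive 2, injury 2 and injury 3, 2 with the block and GC correction, and 0 to 2 when a library was left out.

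Median log2 fold changes with library sizes alone were -0.08 over all members, -0.18 in complex II, -0.12 in complex III and -0.05 in complex IV. Without naive 2, injury 2 and injury 3 they were -0.07 over all members and -0.06 in complex II. In complex IV the range when a library was left out was -0.04 to 0.07, with -0.04 without naive 1. Summed levels, injury over naive, with library sizes alone were 0.961 over all members, 0.911 in complex I, 0.98 in II, 0.952 in III, 1.02 in IV and 0.975 in V. The cause of these shifts was not tested. At 0 to 753 reads over 8 libraries, depth limits what can be said of Ndufs5, Cox8a, Ndufb11, Atp5j, Atp5l and the tissue forms of complex IV.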
